A study of Mus musculus with 4 samples.

Results

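The p53 and Gadd45 stress response genes are 10 genes picked by symbol, namely Gadd45a, Gadd45b, Gadd45g, Mdm2, Plk2, Sesn1, Ccng1, Trp53, Bbc3 and Bax. They were selected on the FPKM values of these 4 libraries, with the difference between the groups already known. All 10 were found among the 23439 genes kept from the series-wide FPKM sheet, and each had a value in all 4 libraries. RNA sequencing was done on total RNA from mouse hearts at 12 weeks of age. Control hearts carried alphaMHCMerCreMer+/-, a Cre recombinase that tamoxifen regulates and that the alpha myosin heavy chain promoter drives in cardiomyocytes. Tbx20_OE hearts carried alphaMHCMerCreMer+/-;CAGCATTbx20, so both groups share the Cre allele and the second adds a Tbx20 transgene that Cre activates. Overexpression was induced at 8 weeks, 4 weeks before collection, and each group has 2 libraries. The labels give neither the inducing agent and its dose nor whether control mice received it. The transgene acts in cardiomyocytes while the RNA came from the heart with all its cell types, so fewer cells of a type and less RNA per cell cannot be told apart.

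Trp53 encodes p53, a transcription factor that DNA damage and other stresses stabilise. Mdm2 is both its target and the ubiquitin ligase that has it degraded, which closes a negative feedback loop that mainly sets p53 protein rather than Trp53 transcript. Among p53 targets, Ccng1 and Plk2 act on the cell cycle and its checkpoints, Sesn1 restrains mTORC1 signalling, and Bax and Bbc3, the latter encoding Puma, act in mitochondrial cell death. The Gadd45 proteins bind PCNA, Cdk1 with cyclin B, and the kinase Map3k4, which leads to p38 and JNK. Gadd45a is a classical p53 target, whereas Gadd45b and Gadd45g are best known for induction by cytokine and NF-kappaB signals. Adult cardiomyocytes rarely divide, and loss of Mdm2 from mouse heart muscle is known to be lethal.

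The values are FPKM, sequenced fragments divided by transcript length and by library size, which allow levels to be compared between genes. Fold changes are differences of group means of log2(FPKM + 1), Tbx20_OE minus control, and understate the change of low genes. The genes were chosen with this contrast known, so their levels and differences are descriptions. With 2 libraries against 2, the smallest two-sided p an exact permutation test can give is 0.333. Tbx20 itself was at 6.99 and 4.58 FPKM in the control hearts, against 11.03 and 16.4 FPKM in Tbx20_OE, with both Tbx20_OE libraries above both controls. Control replicate 2 was unlike the rest, with Pearson correlations of log2 values between 0.927 and 0.957 with each of them. Atrial markers were high in it. Of 7 tested members of that list 6 were highest there, and the 8 measured summed to 3758 FPKM there, 145 FPKM in control replicate 1 and 143 and 254 FPKM in Tbx20_OE, with Bmp10 at 0 in every library. Mesothelial markers summed to 29.9 FPKM in it and to between 2.17 and 2.44 FPKM in the other libraries. The part of these markers in the results below was not tested. The 8 cardiomyocyte markers summed to between 33426 and 38716 FPKM in the 4 libraries. Of the 10513 tested genes, 54.3% were lowest in control replicate 2 and 25.5% highest, against 6 and 2 of these 10 genes. Of the 9 members that were tested, 5 were lowest and 2 highest there.

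The 10 genes covered a wide range of levels. Ccng1 was the highest, above 96.4% of the tested genes by its mean over the 4 libraries, followed by Sesn1 (above 89.6%) and Bax (above 80.3%). Gadd45g, Mdm2, Gadd45a and Plk2 came next, and Trp53 and Gadd45b lay near the middle, above 51.8% and 49.4% of tested genes. Bbc3 was lowest, below 1 FPKM in all 4 libraries, and was left out of the test, which took genes with a mean of at least 1 FPKM. Neighbours in this order from Bax to Gadd45b overlap in their values over the libraries, and so do Sesn1 and Bax, since Sesn1 lay below Bax in control replicate 2. The places of Ccng1 and Bbc3 stand apart.

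**Figure D1:**
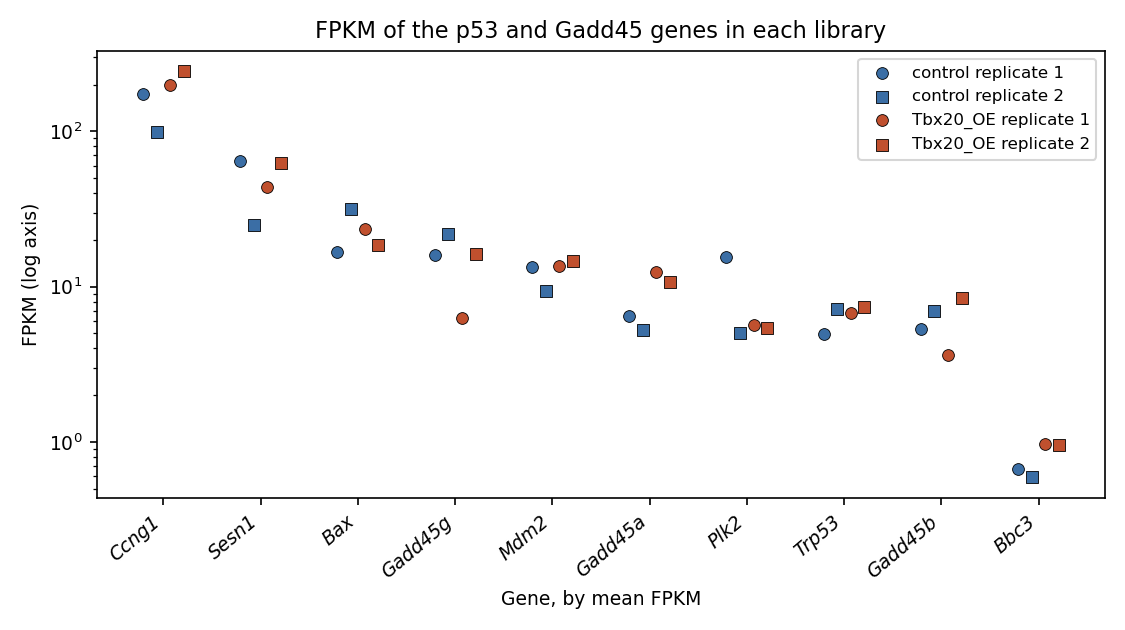
FPKM on a log axis of the 10 genes in each library, ordered by mean; circles are replicate 1, squares replicate 2, blue control and red Tbx20_OE. Both red points lie above both blue points for Gadd45a, Ccng1, Mdm2 and Bbc3, and for Plk2 control replicate 1 alone is high.

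In Tbx20_OE the mean was higher for 6 of the 10 genes and lower for 4, and their median fold change was 0.24 on the log2 scale. Over all tested genes the median was 0.15, and 71.1% of them had a higher mean in Tbx20_OE. The Tbx20_OE libraries were both above the control pair for 4 genes, namely Gadd45a, Ccng1, Mdm2 and Bbc3, and below both for 0. Over all tested genes these orders held for 28.1% and 4.77%. Bbc3 was not tested. Of the 9 tested members, 5 had a higher mean, 3 were above both controls and 0 below, and the median was 0.21. In the limma test over all genes 0 of the 9 tested members passed at a Benjamini-Hochberg adjusted p under 0.05, and the background is 0.019% of tested genes. These were Hba-a1, a globin gene with a near-identical copy, and Snord33, a small nucleolar RNA, both higher. At an unadjusted p under 0.05, 1 member (Gadd45a) and 1.52% of all tested genes were found. Nothing is read from these counts, because the contrast was known when the genes were named.

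The Gadd45 family showed the widest contrast, with Gadd45a higher and Gadd45g lower on average in the same hearts. Gadd45a, on chromosome 6 from 67035096 to 67037407 of mm10, was at 6.51 and 5.24 FPKM in the control hearts, against 12.4 and 10.7 FPKM in Tbx20_OE. The groups did not overlap, with means of 5.87 ± 0.901 and 11.5 ± 1.19 FPKM (SD, n = 2 each). Its log2 fold change was 0.87 (standard error 0.22), or 1.83-fold between geometric means of FPKM + 1. That difference was larger than the gap between the controls (0.27) and between the Tbx20_OE libraries (0.19) on the same scale. A difference above both gaps, in the higher direction, was found in 14.2% of tested genes, and in Gadd45a and Bbc3 here. Bbc3 was not tested, which leaves Gadd45a alone of the 9 tested members. In the lower direction such a difference was found in 2.72% of tested genes and 0 of the 10. The antisense gene E230016M11Rik, from 67036599 to 67080654, shares 859 bases with Gadd45a on the opposite strand. Whether counting used strand is not stated in the labels or headers, so reads of that stretch cannot be told apart. The antisense gene was listed at 0.453 and 0.564 FPKM in the control hearts, against 0.681 and 0.961 FPKM in Tbx20_OE.

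Gadd45b, on chromosome 10 from 80930091 to 80932204, was at 5.31 and 6.94 FPKM in the control hearts, against 3.60 and 8.47 FPKM in Tbx20_OE. The Tbx20_OE libraries enclosed the controls, and the log2 fold change was -0.10 (standard error 0.38). Its sign changed without control replicate 2 (0.07) and without Tbx20_OE replicate 1 (0.42). Gadd45g, on chromosome 13 from 51846675 to 51848474, was at 16.0 and 21.8 FPKM in the control hearts, against 6.28 and 16.2 FPKM in Tbx20_OE. Its low value came from Tbx20_OE replicate 1 alone, since Tbx20_OE replicate 2 lay just above control replicate 1. The log2 fold change was -0.82 (standard error 0.44), -0.20 without Tbx20_OE replicate 1 and -1.43 without Tbx20_OE replicate 2.

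The shares of the 3 genes in their summed FPKM do not change when a library is rescaled, but they sum to the whole, so that a higher share of one lowers the others. Gadd45a made up 23.4% and 15.4% of summed Gadd45 FPKM in control and 55.6% and 30.3% in Tbx20_OE. Gadd45g made up 57.5% and 64.1% in control and 28.2% and 45.8% in Tbx20_OE. For both genes the shares of the groups did not overlap, although the Gadd45g level itself did. Shares do change where a library deviates differently for each gene. Control replicate 2 deviated from the mean of the other libraries by -0.76 for Gadd45a and 0.83 for Gadd45g, on the log2(FPKM + 1) scale. The part of this in the shares was not tested, and no background over other genes was computed. The share of Gadd45b overlapped, at 19.1% and 20.4% in control and 16.2% and 24.0% in Tbx20_OE. The summed level overlapped too, at 27.8 and 33.9 FPKM in control and 22.2 and 35.3 FPKM in Tbx20_OE. Gadd45g was the most abundant member in 3 libraries, and Gadd45a in Tbx20_OE replicate 1.

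**Figure D2:**
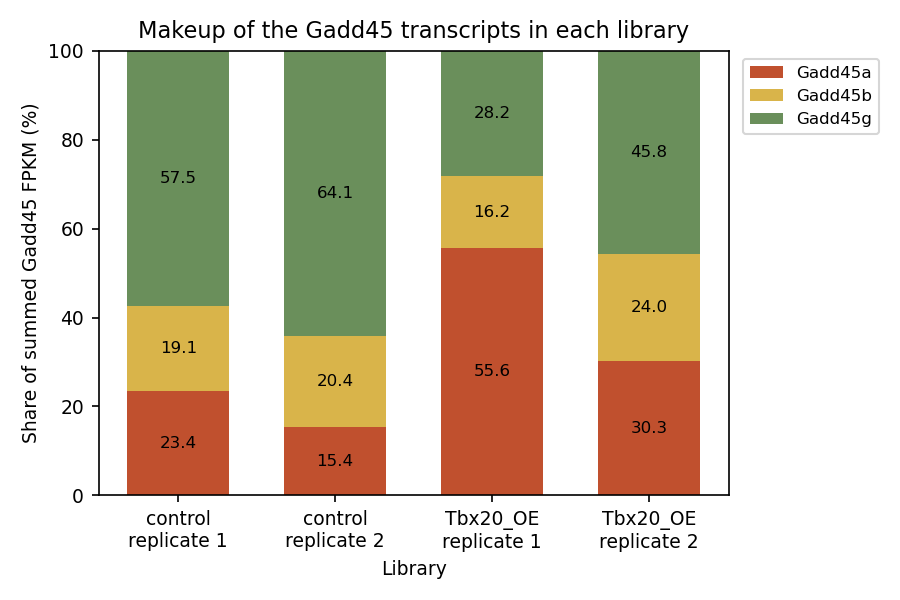
Share in percent of the summed FPKM of Gadd45a, Gadd45b and Gadd45g that each contributes, by library, with the value printed in each segment. The Gadd45a segment is 15.4% and 23.4% in control and 30.3% and 55.6% in Tbx20_OE.

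The promoters of the 3 Gadd45 genes and of Plk2 are shown to set the family's start regions side by side with that of the 1 member flagged in the authors' deposited table. Each window holds 250 bases before and 50 after the start in RefSeq on GRCm38.p6, the assembly behind mm10, 5′ to 3′ on the gene's strand. Capitals mark every match to the octamer ATGCAAAT, the CCAAT box, the TATA box TATAAA, the E-box CACGTG, the cyclic AMP response element TGACGTCA and the p53 half-site. All motifs were searched on both strands and overlaps were allowed. The windows are chr6:67037358-67037657 on the minus strand for Gadd45a, chr10:80929841-80930140 on the plus strand for Gadd45b, chr13:51846425-51846724 on the plus strand for Gadd45g and chr13:110394794-110395093 on the plus strand for Plk2.
Gadd45a: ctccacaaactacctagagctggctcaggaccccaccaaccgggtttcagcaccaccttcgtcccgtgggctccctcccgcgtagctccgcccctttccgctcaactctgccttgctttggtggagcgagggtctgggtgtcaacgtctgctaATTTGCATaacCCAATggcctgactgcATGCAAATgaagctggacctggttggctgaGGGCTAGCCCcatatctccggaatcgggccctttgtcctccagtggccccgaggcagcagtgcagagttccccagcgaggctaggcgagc
Gadd45b: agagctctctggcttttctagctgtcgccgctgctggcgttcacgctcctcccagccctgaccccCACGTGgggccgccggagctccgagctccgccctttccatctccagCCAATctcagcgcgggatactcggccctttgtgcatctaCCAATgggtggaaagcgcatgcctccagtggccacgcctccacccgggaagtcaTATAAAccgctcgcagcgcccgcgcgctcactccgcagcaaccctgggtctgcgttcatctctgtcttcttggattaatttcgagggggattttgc
Gadd45g: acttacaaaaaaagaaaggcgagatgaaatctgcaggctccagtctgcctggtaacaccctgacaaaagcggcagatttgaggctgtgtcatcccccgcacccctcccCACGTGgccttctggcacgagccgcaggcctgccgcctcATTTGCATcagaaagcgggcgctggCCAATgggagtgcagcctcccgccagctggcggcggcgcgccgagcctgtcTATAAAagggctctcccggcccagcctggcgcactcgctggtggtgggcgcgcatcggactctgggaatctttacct
Plk2: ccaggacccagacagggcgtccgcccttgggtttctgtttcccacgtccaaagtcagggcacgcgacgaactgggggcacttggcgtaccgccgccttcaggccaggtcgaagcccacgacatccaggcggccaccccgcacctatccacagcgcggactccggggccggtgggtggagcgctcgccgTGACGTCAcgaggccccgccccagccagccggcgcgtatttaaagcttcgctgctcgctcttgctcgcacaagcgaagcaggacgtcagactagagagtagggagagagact

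The octamer, the site of POU factors such as Oct-1, occurs at -97 and -70 of the Gadd45a start, on opposite strands with a CCAAT box at -86 between them. Gadd45g has 1 octamer, at -103, and Gadd45b and Plk2 have none in this window. Over all 32851 promoter windows of the table, 1.74% hold an octamer. A CCAAT box is in all 3 Gadd45 windows, as in 37.4% of all windows, and Gadd45b and Gadd45g also hold a TATA box (13.6% of windows), at -46 and -27. The single cyclic AMP response element among the 10 genes is in Plk2, at -62 (1.79% of windows). The 10 windows had between 52.7% and 76% GC, against a median of 52.7% over all windows. An E-box is in the windows of Gadd45b, Gadd45g, Trp53 and Bax, 4 of 10, against 7.15% of all windows. A p53 half-site is in the windows of Gadd45a, Mdm2, Ccng1, Trp53 and Bax, 5 of 10, against 8.36% of all windows. In Gadd45a it lies at -40 and reads gggctagccc, and in Ccng1 at -185 and reads gggcaagcct. A functional p53 element has a pair of such half-sites, and for Gadd45a and Mdm2 the best known elements lie in introns outside these windows. The T-box site AGGTGTGA is in 0 of the 10 windows and in 1.28% of all windows. These are matches of letters only, chosen with the results known.

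Trp53, on chromosome 11 from 69580359 to 69591873, was at 4.95 and 7.13 FPKM in the control hearts, against 6.71 and 7.38 FPKM in Tbx20_OE. The groups overlapped, and the log2 fold change was 0.21 (standard error 0.24). Mdm2, on chromosome 10 from 117688905 to 117710716, was at 13.3 and 9.33 FPKM in the control hearts, against 13.5 and 14.7 FPKM in Tbx20_OE. Its groups were separated by a narrow margin, with control replicate 1 close to Tbx20_OE replicate 1, and the log2 fold change of 0.31 (standard error 0.25) was 0.07 without control replicate 2. Mdm2 FPKM was 2.69 and 1.31 times Trp53 FPKM in the controls and 2.01 and 1.99 times in Tbx20_OE, so the controls enclosed the Tbx20_OE libraries. Mdm4, the relative of Mdm2 that inhibits p53, overlapped as well, at 2.07 and 4.55 FPKM in control and 4.06 and 3.47 FPKM in Tbx20_OE.

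Ccng1, which encodes cyclin G1, a partner of protein phosphatase 2A, lies on chromosome 11 from 40748552 to 40755286. It was at 175 and 99.2 FPKM in the control hearts, against 199 and 245 FPKM in Tbx20_OE. The groups did not overlap, and the log2 fold change was 0.74 (standard error 0.35), or 1.67-fold between geometric means of FPKM + 1. The gap between the controls, 0.81, was larger than that difference, and the fold change was 0.33 without control replicate 2 and 1.14 without control replicate 1. Sesn1, encoding the leucine-binding sestrin 1, lies on chromosome 10 from 41810574 to 41908436. It was at 64.9 and 24.8 FPKM in the control hearts, against 43.7 and 62.2 FPKM in Tbx20_OE. The controls enclosed the Tbx20_OE libraries. The span of the gene model 9930024M15Rik, which has no value among the genes kept, shares 2584 bases with that of Sesn1 on the same strand. Spans include introns, so whether exons are shared, and how reads there were assigned, is not known. The fold change of 0.37 (standard error 0.49) became -0.31 without control replicate 2 and 1.04 without control replicate 1.

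Plk2, a polo-like kinase of centriole duplication and synapses, lies on chromosome 13 from 110395044 to 110400843. It was at 15.4 and 5.04 FPKM in the control hearts, against 5.64 and 5.38 FPKM in Tbx20_OE. Control replicate 1 alone was high, and control replicate 2 was the lowest of the 4 libraries. The log2 fold change was -0.61 (standard error 0.48), -1.33 without control replicate 2 and 0.11 without control replicate 1. In the authors' deposited table Plk2 is the 1 member flagged, as lower, among 1.36% of genes with status OK. That table gives 18.2 FPKM in control and 8.82 FPKM in Tbx20_OE for Plk2, with a cuffdiff p-value of 0.00395 and a q-value of 0.659. For the other 9 members the authors' deposited table gives a q-value of 0.999. For Gadd45a it gives 9.44 FPKM in control and 16.1 FPKM in Tbx20_OE, with a cuffdiff p-value of 0.0554. For Plk2 and Gadd45a these group values lie above every single-library FPKM of the same group. They are therefore not means of the library values given here and are not on the same scale.

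Bax, the pore-forming death effector of the Bcl2 family, lies on chromosome 7 from 45461695 to 45466898. It was at 16.7 and 31.7 FPKM in the control hearts, against 23.5 and 18.4 FPKM in Tbx20_OE, and the controls enclosed the Tbx20_OE libraries. Its log2 fold change was -0.14 (standard error 0.36), and 0.30 without control replicate 2. The span of the gene model Gm45808, also without a value among the genes kept, shares 915 bases with that of Bax on the same strand. Whether exons are shared, and how reads there were assigned, is not known. Bbc3, encoding the BH3-only protein Puma, lies on the same chromosome from 16309583 to 16318334. It was at 0.670 and 0.591 FPKM in the control hearts, against 0.973 and 0.960 FPKM in Tbx20_OE. The groups did not overlap, with a log2 fold change of 0.27, which was 0.55 with a pseudocount of 0.1 and 0.11 after median centring. Depth is unknown, and at such low levels the counting error cannot be given. Bcl2, the death inhibitor, was also low, at 0.833 and 0.446 FPKM in control and 0.949 and 1.34 FPKM in Tbx20_OE, with no overlap.

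**Figure D3:**
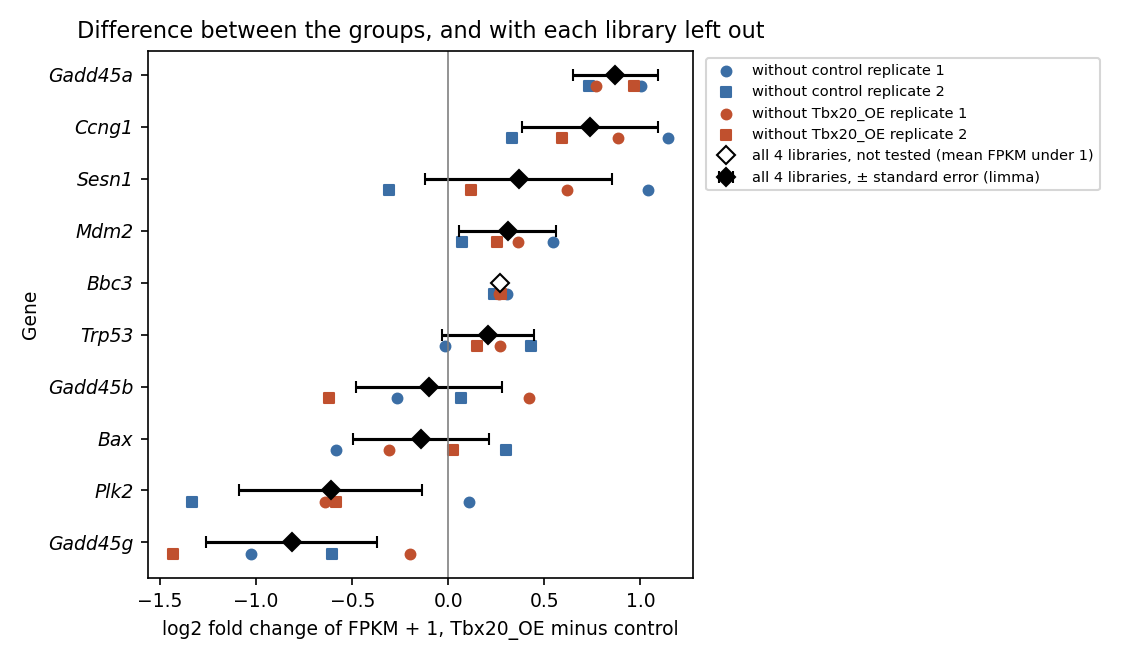
Log2 fold change of FPKM + 1, Tbx20_OE minus control, for each gene (diamonds, with the limma standard error as bars; the open diamond of Bbc3 has no test) and with each library left out (coloured points). For Gadd45a, Ccng1, Mdm2 and Bbc3 all points lie above 0 and for Gadd45g all below 0, while those of Sesn1, Trp53, Gadd45b, Bax and Plk2 fall on both sides.

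Without control replicate 1 the limma test, adjusted by the Benjamini-Hochberg method over all genes, called 3 members higher. These were Gadd45a (log2 1.00, adjusted p = 0.031), Ccng1 (log2 1.14, adjusted p = 0.0368) and Sesn1 (log2 1.04, adjusted p = 0.0434). In that fit control replicate 2 is the lone control library and is taken to have the spread of the Tbx20_OE pair. There 11.4% of all tested genes were called higher and 2.26% lower. Leaving out control replicate 2 or either Tbx20_OE library, 0 members were called, with a lowest adjusted p of 0.0808 without control replicate 2, for Plk2.

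The deviation of control replicate 2 from the mean of the other libraries differed between the 10 genes along with transcript GC content. Ccng1, with 40.8% GC, deviated by -1.03 on the log2(FPKM + 1) scale, Sesn1, with 49.8% GC, by -1.15, and Gadd45a, also with 49.8% GC, by -0.76. Gadd45g, with 59.9% GC, deviated by 0.83 and Bax, with 63.5% GC, by 0.68, while Bbc3 has the highest GC content, 65.2%, and deviated by -0.23. Spearman's rho was 0.70 over the 10 genes and 0.45 over tested genes with a GC value, as a description across genes that share the same libraries. With values corrected for GC content the log2 fold change was 0.68 for Gadd45a, 0.44 for Ccng1, 0.06 for Mdm2, -0.77 for Gadd45g and -0.84 for Plk2.

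**Figure D4:**
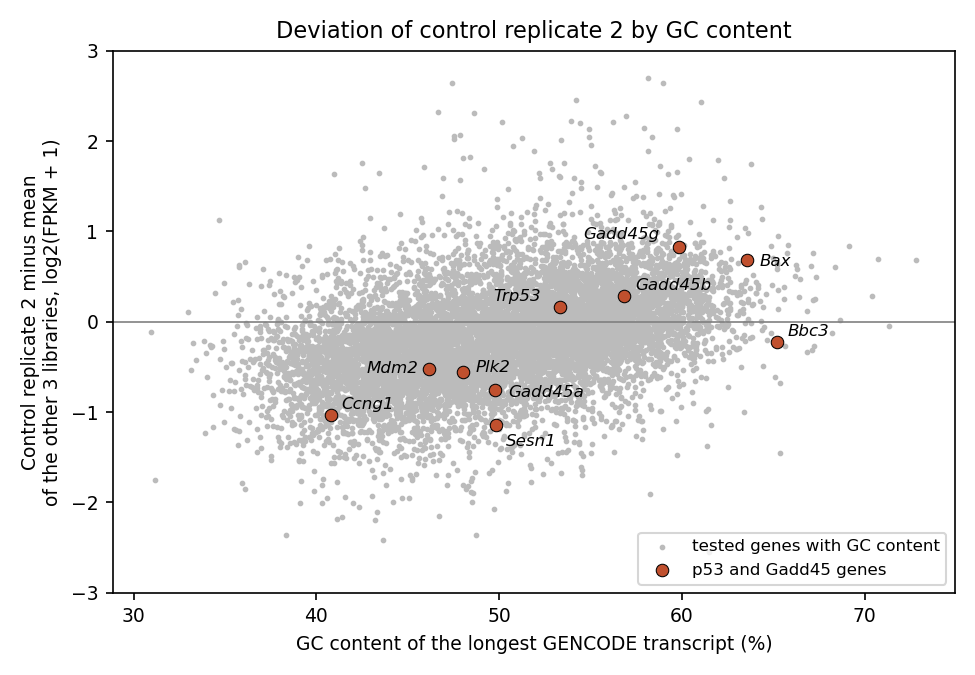
Difference of log2(FPKM + 1) between control replicate 2 and the mean of the other 3 libraries, against GC content in percent of the longest transcript, for tested genes (grey; 30 genes lie beyond the axis) and the 10 genes (red). Ccng1 and Sesn1 lie lowest at -1.03 and -1.15, and Gadd45g and Bax highest at 0.83 and 0.68.

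Other p53 target genes, a list of 29 of which 20 were tested, had a median of 0.23 on the log2 scale. Limma called 0 of the 20 in either direction, 5 had both Tbx20_OE libraries above both controls and 0 below. Here and for the lists that follow, these counts stand beside 28.1% of all tested genes separated higher and 4.77% lower. Xpc, which recognises DNA damage, had 2.57 and 1.00 FPKM in control and 2.78 and 3.24 FPKM in Tbx20_OE, and Fas, a death receptor, at 7.71 and 7.86 against 10.07 and 11.2 FPKM. Perp, a desmosomal membrane protein, was at 76.5 and 48.2 FPKM against 77.0 and 79.0 FPKM. Cdkn1a, which encodes the cell cycle inhibitor p21 and is the best known p53 target, overlapped, at 8.07 and 27.0 FPKM in control and 10.2 and 16.3 FPKM in Tbx20_OE. The list of p53 regulators and damage kinases had 17 of 24 genes tested, 0 called, 6 separated higher and 1 lower, and a median of 0.16. Among them the deubiquitinase Usp7, which acts on both Mdm2 and p53, was at 7.63 and 7.92 FPKM against 8.79 and 9.42 FPKM, and the acetyltransferase Kat5 at 8.06 and 8.33 FPKM against 7.14 and 7.72 FPKM. Ppp1r13b, which encodes the p53-binding protein ASPP1, was at 4.57 and 2.68 FPKM against 4.599 and 5.63 FPKM, and the checkpoint kinase Atr at 1.62 and 1.08 FPKM against 1.67 and 1.70 FPKM.

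Gadd45 partners and the p38 and JNK pathway had 14 of 18 genes tested, 0 called, 5 separated higher and 1 lower, with a median of 0.21. Pcna, the DNA replication clamp that Gadd45 proteins bind, was at 24.1 and 15.7 FPKM in control and 29.5 and 28.8 FPKM in Tbx20_OE. Map2k4, a kinase upstream of JNK, was at 8.60 and 4.21 FPKM against 9.001 and 12.8 FPKM, and the JNK gene Mapk9 at 5.87 and 4.78 FPKM against 6.92 and 7.72 FPKM. Tdg, a DNA glycosylase of active demethylation that works with Gadd45a, was at 2.25 and 1.84 FPKM against 0.909 and 0.725 FPKM, the lowest fold change of the separated genes of this list (log2 -0.74). The Bcl2 family and mitochondrial death list had 16 of 23 tested, 0 called, 3 separated higher (Cycs, Diablo and Bak1) and 1 lower (Bik), and a median of 0.19. Cycs, which encodes cytochrome c, was at 320 and 242 FPKM in control and 410 and 337 FPKM in Tbx20_OE. The pore-forming Bak1 was at 4.86 and 4.63 FPKM against 5.74 and 6.17 FPKM, and the BH3-only Bik at 5.47 and 5.02 FPKM against 4.10 and 3.85 FPKM. Diablo, an inhibitor of caspase inhibitors, was at 39.2 and 28.9 FPKM against 42.4 and 41.8 FPKM.

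GATOR complex genes, through which sestrins act on mTORC1, had all 8 tested, 0 called, 4 separated higher (28.1% of all tested genes) and 0 lower (4.77%), with a median of 0.21. Nprl3 was at 4.01 and 3.96 FPKM in control and 5.10 and 5.55 FPKM in Tbx20_OE, Sec13 at 37.6 and 34.5 FPKM against 43.6 and 40.2 FPKM, and Depdc5 at 1.34 and 1.07 FPKM against 1.42 and 1.68 FPKM. Paralogs of the 10 genes had 6 of 13 tested, 0 called, 1 separated higher (Bak1) and 0 lower, with a median of 0.15. All these medians stand beside 0.15 for all tested genes. Without control replicate 2 they were 0.17 for p53 targets, 0.06 for p53 regulators, 0.04 for the death list, 0.07 for Gadd45 partners, 0.05 for GATOR and -0.03 for the paralogs.

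**Figure D5:**
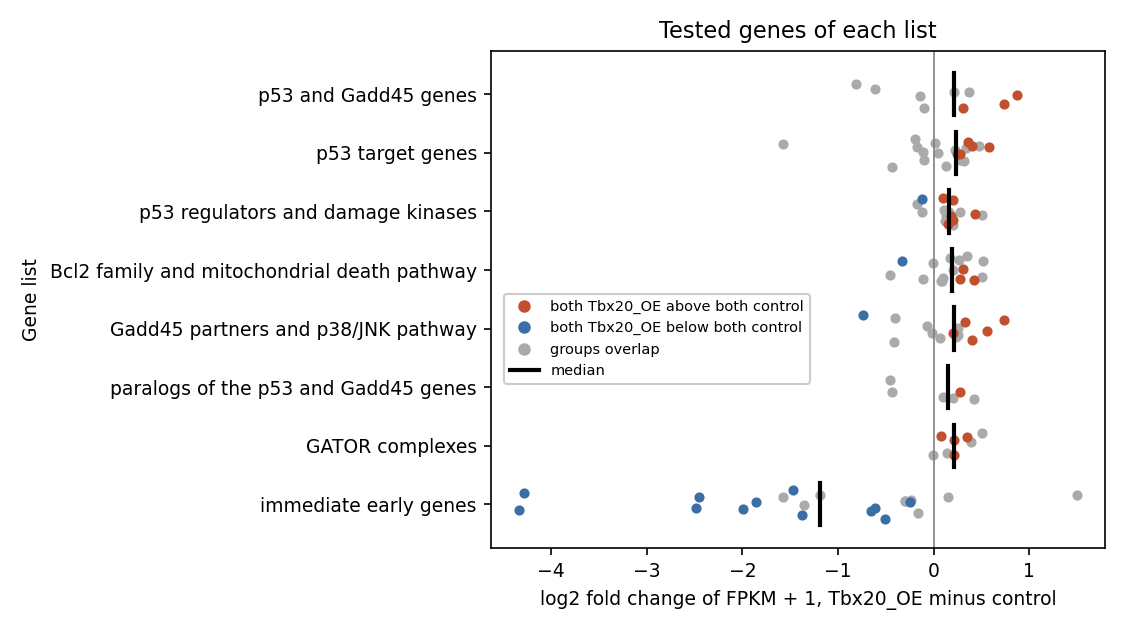
Log2 fold change of FPKM + 1, Tbx20_OE minus control, for the tested genes of each list, with the list's median as a bar; red and blue mark genes whose groups do not overlap. The medians lie between 0.15 and 0.23 except for immediate early genes, at -1.18.

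Of 24 immediate early genes 21 were tested and 0 were called. Both Tbx20_OE libraries lay below both controls for 12 of them, against 4.77% of all tested genes, and the other 9 overlapped, with a positive fold change for Nr4a3 (1.498) and Maff (0.15). The part of these genes in the values of the stress genes was not tested. Egr1, a zinc finger factor, was at 129 and 26.5 FPKM in the control hearts, against 2.05 and 2.07 FPKM in Tbx20_OE, Fos, a subunit of AP-1, at 53.2 and 18.1 FPKM against 0.808 and 0.412 FPKM, and Ier2 at 85.3 and 31.3 FPKM against 10.5 and 6.71 FPKM. The list's median was -1.18, and -1.48 without control replicate 2. It summed to 977 and 483 FPKM in control and to 240 and 288 FPKM in Tbx20_OE. Btg2, an antiproliferative p53 target that is on both lists, was at 81.4 FPKM in control replicate 1 against 12.1 FPKM in the second control and 7.02 and 14.2 FPKM in the Tbx20_OE pair, so that, as for Plk2, control replicate 1 alone was high (log2 fold change -1.57). Smooth muscle and pericyte markers were higher in both Tbx20_OE libraries for 4 of 7 genes and lower in both for 1, against 28.1% and 4.77% of all tested genes, and 0 were called. They summed to 96.3 and 82.9 FPKM in control and 152 and 137 FPKM in Tbx20_OE. Their part was not tested either. Endothelial markers summed to between 137 and 184 FPKM, fibroblast markers to between 391 and 521 FPKM and macrophage markers to between 140 and 215 FPKM, with overlapping groups for endothelial and macrophage sums. Fibroblast sums were 391 and 399 FPKM in control and 521 and 435 FPKM in Tbx20_OE. Red cell and platelet markers summed to 144 and 3088 FPKM in control and 811 and 229 FPKM in Tbx20_OE.

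The tested genes with profiles nearest to 4 of the members were found by Euclidean distance between log2(FPKM + 1) values centred on their mean over the 4 libraries. Mir and Snor genes and symbols of predicted genes (Rik, Gm-numbered, LOC and accession-like) were left out. A gene with such a symbol may lie nearer than those named. Nearest to Gadd45a were Ucp3 (distance 0.15), a mitochondrial uncoupling protein gene, Erich1 (0.20) and the matrix proteoglycan gene Lum (0.21). Lum was at 19.9 and 18.0 FPKM in control and 32.5 and 32.5 FPKM in Tbx20_OE. Nearest to Gadd45b were Fnip2 (0.13), Tnfrsf12a (0.23), the receptor of the cytokine Tweak, and Ppfia1 (0.29). Tnfrsf12a was at 43.4 and 47.2 FPKM in control and 32.1 and 69.8 FPKM in Tbx20_OE. Gadd45g had Otud1 (0.25), the lipopolysaccharide receptor gene Cd14 (0.54) and Ppp1r15a (0.57), which encodes Gadd34, as nearest genes. Otud1, a deubiquitinase gene, was at 23.1 and 24.4 FPKM in control and 8.47 and 20.0 FPKM in Tbx20_OE. Nearest to Plk2 were the pseudogene Rpl31-ps12 (0.23), Chac1 (0.34), a glutathione-degrading enzyme gene, and the transcriptional regulator Cited2 (0.35). Chac1 was at 4.16 FPKM in control replicate 1 and at 0.726, 0.847 and 1.39 FPKM in the other libraries.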

How the data were processed

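RNA was sequenced from 4 hearts, 2 control and 2 Tbx20_OE, grouped by the genotype label. FPKM values per gene were deposited by the authors in a series-wide sheet and in a file for each library, and each of the 95720 sheet values compared had an equal, within a relative 1e-05, among the entries of its symbol there. The submitters' processing notes name TopHat2 2.0.13, Cufflinks 2.1.1 and mm10; no source used here names the annotation. FPKM is scaled per kilobase and per mapped fragments by the authors, depth is unknown, and no counting interval can be given. The authors' deposited comparison table holds group FPKM and, from cuffdiff 2.1.1 at default settings, a p-value and a q-value per gene, with selection flags scored as 0 or 1, per the file headers. The authors also deposited quantile-normalized FPKM values.

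The 4 genes with a failed estimate and 1 unmatched gene were left out, and of repeated symbols the entry with the highest mean was kept. log2(FPKM + 1) values of the 10513 genes averaging 1 FPKM or more were tested with limma 3.58.1 in R 4.3.3 with a mean-variance trend, the group as the only term and Benjamini-Hochberg adjustment at 0.05, two-sided. A check of the test on simulated data gave each gene the same spread in every library, so it does not cover an outlying library. GC content was taken over each symbol's longest transcript in GENCODE M21 (95.4% of tested genes), and promoters from RefSeq for all 10 members. Gene starts are the files' starts plus 1. The replicates come from separate hearts per the labels' protocols. The members and lists were chosen with earlier results of these data known. Named genes are Tbx20, the members and the 3 nearest profiles of 4 members. Outside the marker lists, up to 3 separated genes in each direction of each list are named. The report also names Cdkn1a, Mdm4, Bcl2, Btg2, Nr4a3, Maff, Hba-a1, Snord33 and E230016M11Rik, chosen after their values were seen. For marker lists the sums are given in place of single genes. Alternatives covered the pseudocount (0.1), the filter (none, or a mean FPKM of at least 5), the scaling, GC correction in 10 bins, the limma trend, the replicate number as a block, and leaving out each library. Other steps and the plots ran in Python 3.11.15 (matplotlib 3.10.9, scipy 1.17.1, numpy 2.4.6, pandas 2.3.3).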

Additional observations from a re-analysis of the deposited data

How the results depend on the processing

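Of 118 values of the members' fold changes under the alternatives, 108 kept their sign and did not newly pass the test. A further 3 newly passed it and 7 changed sign, and those 10 came from leaving out 1 library. Bbc3 was tested only with no filter, so its other values could only keep or change their sign. Leaving out 1 library gave 40 of the 118 values, and 7 of those 40 changed sign. The filter, the limma trend and the replicate block leave a member's fold change as it is, so no sign could change there. With a library left out the log2 fold change ranged from -0.62 to 0.42 for Gadd45b, from -0.58 to 0.30 for Bax, from -1.33 to 0.11 for Plk2, from -0.31 to 1.04 for Sesn1 and from -0.017 to 0.43 for Trp53. It ranged from 0.73 to 1.00 for Gadd45a and from 0.33 to 1.14 for Ccng1. The number of members called was 0 to 3, and of members with separated groups 6 to 8, where a lone library makes separation easier. The members' median was 0.13 to 0.32 with a library left out, against 0.24. It was 0.079 after median centring and 0.095 with the quantile-normalized table. GC-corrected values cover the 9 tested members, and their median was 0.059, against 0.21 for the same 9 uncorrected. Groups were separated, in either direction, for 5 members after median centring, 5 with the quantile-normalized table and 3 with GC-corrected values, against 4. Median centring moved the median of all genes by 0.16, and relative to that shift the split of the members was the same, 6 higher and 4 lower. Over all genes, 2 were called higher and 0 lower, against 111 and 49 at an unadjusted p under 0.05. With a pseudocount of 0.1, or with no filter, 1 was called higher. Leaving out a library gave 6 to 1195 called higher and 0 to 238 lower, the most without control replicate 1. The cause was not tested. With a replicate block 3 genes were called higher and 3 lower, and 0 members. The labels share only a number between groups (correlation of deviations -0.45), and a crossed pairing, chosen after seeing the data, called 12 higher and 18 lower. Depth is unknown, so no counting error can be given.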
